A study of Mus musculus with 6 samples.

Results

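Lungs of mice carrying the same BMPR2-R899X transgene were compared between animals that had developed high right ventricular systolic pressure (RVSP) and animals whose pressure stayed near normal. The comparison used the 4 arrays whose titles give the R899X genotype and state either high RVSP (2 mice) or normal RVSP (2 mice), out of 6 arrays in all, and it covered 45037 probe sets. All 6 animals were individual age-matched female mice of the FVB/N strain, and each array was made from whole lung homogenate of 1 mouse on the Affymetrix Mouse Genome 430 2.0 array. The R899X mice carried the transgenes SM22-rtTA and TetO7-BMPR2-R899X, each heterozygous. The remaining 2 mice, the controls, carried SM22-rtTA alone. All 6 animals, controls included, were fed doxycycline for 9 weeks from 4 weeks of age and were killed at 13 weeks, so the drug is common to all groups. The genotype is also common to both sides of the main comparison, which asks which lung transcripts differ between the pressure groups. The level of transgene expression in each mouse was not established, so it cannot be told apart from the pressure. The labels give no pressure reading for any mouse, and replicate numbers follow the order of deposit and pair nothing.

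BMPR2 is a receptor kinase for bone morphogenetic proteins (BMPs) that signals through Smad transcription factors, and inherited mutations in it are the best known genetic cause of pulmonary arterial hypertension. R899X truncates the cytoplasmic tail and leaves the kinase domain in place. In this model rtTA, a transactivator that needs doxycycline, is driven by the promoter of Tagln (SM22), which is active mainly in smooth muscle, and it turns on the mutant receptor there while the endogenous mouse gene stays intact. RVSP stands in for pulmonary artery pressure, which rises when small lung arteries narrow.

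On the deposited scale the array medians lay between 128 and 141, and the 3'/5' intensity ratios of the beta-actin control probe sets, a measure of RNA integrity, were 1.36 and 1.27 with high RVSP and 1.64 and 1.31 with normal RVSP. The control arrays gave 1.89 and 1.45. The root mean square log2 distance was 0.492 between the high RVSP arrays and 0.589 between the normal RVSP arrays. The 4 pairs of 1 high with 1 normal RVSP array lay between 0.474 and 0.597, a range that enclosed both distances between arrays of like pressure. Each value below rests on n = 2 mice per group, p-values measure the spread between these mice, and an exact permutation test of 2 against 2 cannot go below p = 0.333.

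No probe set differed between high and normal RVSP at the 0.05 threshold. With limma and Benjamini-Hochberg adjustment, 0 of 45037 probe sets (0.0%) passed, and the smallest adjusted p was 0.9997. At an unadjusted limma p under 0.05 there were 1492 probe sets (3.31%), 885 higher (1.97%) and 607 lower (1.35%) in high RVSP, where 2252 would be expected by chance. An ordinary linear model without moderation also called 0, with 1703 at an unadjusted p under 0.05. Simulated data of this comparison held 45037 probe sets, 200 of them changed. There the same procedure recovered 10.2% of changes of 2-fold, 75.8% at 4-fold and 94.4% at 8-fold. The simulation drew independent noise for each probe set and array from the fitted spread. It changed only probe sets brighter than the lower 40% by mean, and included changes of 16-fold. Deviations shared by many probe sets of an array were not simulated, so these shares need not hold for the real arrays. With 0 probe sets called, everything that follows is a description of differences that did not pass. The words "higher" and "lower" give the side of a value and not a call.

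**Figure D1:**
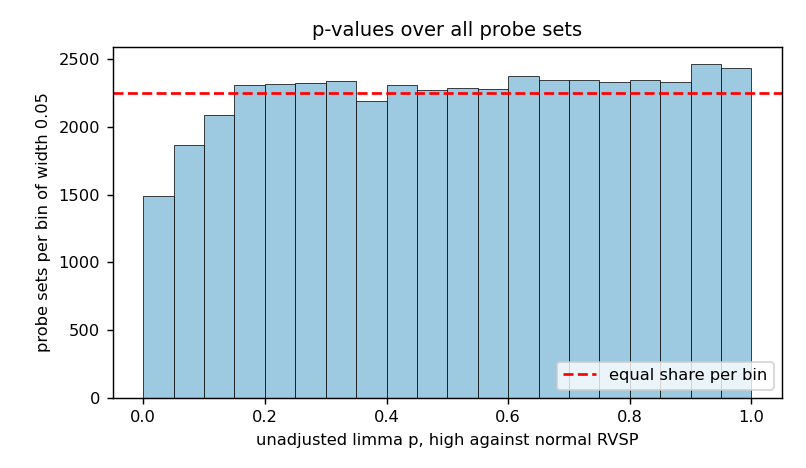
Number of probe sets (vertical axis) in each bin of width 0.05 of the unadjusted limma p for high against normal RVSP (horizontal axis), over 45037 probe sets. The dashed line marks an equal share per bin, and the leftmost bin, with 1492 probe sets, lies below it.

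Without the second normal RVSP array 3 probe sets passed in limma (adjusted p = 0.0413 for each). They read Luc7l2, a splicing factor, Sppl2a, an intramembrane protease, and an unnamed transcript. Luc7l2 had an intensity of 755 on the first normal RVSP array against 5491 on the second and 4774 and 4115 in high RVSP. Sppl2a gave 74.6 and 1267 in normal RVSP and 1042 and 1321 in high RVSP. In each case 1 normal RVSP array was low and the other lay with the high RVSP arrays.

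Bmpr2 itself was read by 3 probe sets. The brightest gave 17087 and 15398 in high RVSP, 18835 and 16849 in normal RVSP and 19768 and 15872 in the controls, a log2 difference between high and normal RVSP of -0.14 (95% interval -0.56 to 0.29). The high and normal RVSP arrays overlapped. Of the other Bmpr2 probe sets, 1 overlapped at 1928 and 2170 against 657 and 1987 (0.83, interval -0.75 to 2.41). The dimmest lay lower without overlap at 331 and 358 against 460 and 373 (-0.26, interval -0.77 to 0.26). It is not known which of these probe sets, if any, reads the transgene, and the genotype labels are unchecked. Tagln, the gene whose promoter drives rtTA, gave 4330 and 4124 in high RVSP and 5622 and 4549 in normal RVSP, a log2 difference of -0.26 (95% interval -0.64 to 0.12). Xist, the X-inactivation RNA, gave at its brightest probe set 7087 and 6458 in high RVSP and 5235 and 5834 in normal RVSP, and probe sets of Y-linked genes did not exceed 38.8 on any array.

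Single genes with the widest separation were taken from probe sets with 1 gene symbol, a mean above the lower 40% (an intensity of 78.3), arrays that did not overlap and an unadjusted limma p under 0.01. This left 27 genes higher and 17 lower in high RVSP, of which the 12 of largest difference on each side are named. Of these 24 genes, 18 were read by other probe sets too, and for 12 of the 18 at least 1 other probe set lay on the opposite side. Not overlapping is a weak criterion here: over all 45037 probe sets, 17.6% lay without overlap higher in high RVSP and 14.8% lower.

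Plcb1 was among the genes higher in high RVSP, with a further probe set lying apart the same way. Plcb1, a phospholipase C that generates the second messengers for calcium release, gave 194 and 222 in high RVSP and 95.6 and 81.4 in normal RVSP, a log2 difference of 1.10 ± 0.31 (SE; 95% interval 0.40 to 1.81). Its brighter probe set lay the same way, at 1766 and 1626 against 1227 and 882 (0.70 ± 0.20), and the controls, at 1108 and 891, sat with the normal RVSP mice. Plcb1 was thus separated at both probe sets, and its other 3 probe sets overlapped.

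Atp2a3, the calcium pump SERCA3, gave 463 and 490 in high RVSP against 173 and 304 in normal RVSP (1.0 ± 0.27), with controls at 251 and 282. A brighter probe set of Atp2a3 overlapped between the groups, at 2274 and 2596 against 1903 and 2313 (0.21 ± 0.23). St6gal1, a sialyltransferase of glycoproteins, gave 265 and 275 against 112 and 146 (0.99 ± 0.27), with controls at 153 and 116. For both genes the controls lay with the normal RVSP arrays at the probe set that separated the groups.

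Tia1, an RNA-binding protein of stress granules, had the largest difference, at 210 and 213 in high RVSP against 13.0 and 26.3 in normal RVSP (2.70 ± 0.75). Its control arrays split, at 10.2 and 153, and of its other 5 probe sets the brightest overlapped, at 984 and 927 against 852 and 938 (0.09 ± 0.19). Another dim one lay the same way, at 137 and 108 against 37.2 and 50.4 (1.21 ± 0.34). The other 3 had differences below 0, and 1 of them lay lower in high RVSP without overlap, at 794 and 756 against 982 and 795 (-0.19 ± 0.17). Hnrnpa1, a splicing regulator, showed the same kind of split, with 455 and 425 against 133 and 281 at the dimmest probe set (1.11 ± 0.32) and 2812 and 2682 against 2773 and 2722 at the brightest (-0.00 ± 0.15). For Limch1, a regulator of actomyosin, 1 probe set gave 1420 and 1420 against 539 and 973 (0.96 ± 0.25), while the brightest gave 18274 and 15542 against 16488 and 16453 (0.03 ± 0.21).

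The other genes higher in high RVSP had log2 differences between 1.11 and 1.76 (the last for Cdh20). Cdh20, a cell adhesion cadherin, gave 111 and 148 in high RVSP and 20.5 and 33.5 in normal RVSP. Zbtb46, a transcription factor of classical dendritic cells, gave 170 and 153 against 57.2 and 76.8. Ier5, an immediate early gene, gave 244 and 226 against 71.1 and 134. Prrg1, a membrane protein with a Gla domain, gave 518 and 374 against 130 and 260. Mrps15, a subunit of the mitochondrial ribosome, and Adamts10, a secreted metalloprotease, had differences of 1.52 and 1.23, and every other probe set of either gene lay the other way. For Cdh20 and Prrg1 the controls (87.3 and 89.5, and 515 and 421) lay with the high RVSP mice, so it was the normal RVSP arrays that stood apart.

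**Figure D2:**
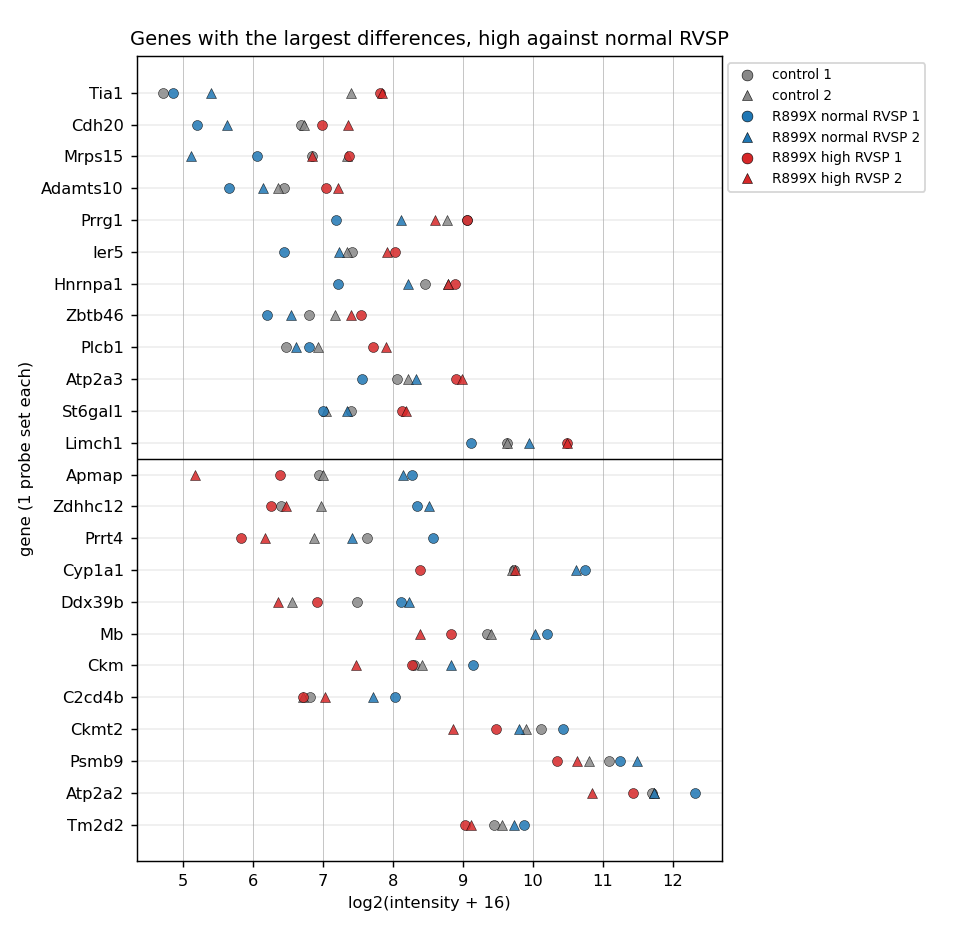
Level of the 24 named genes on each of the 6 arrays, as log2(intensity + 16) on the horizontal axis, 1 probe set per gene and 1 mark per mouse. Genes above the line were higher in high RVSP (red) than in normal RVSP (blue) and genes below it lower, and the control marks (grey) lie on either side, as for Cdh20 and Plcb1.

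Of the 24 named genes Mb had the smallest unadjusted limma p, and the creatine kinases Ckm and Ckmt2 were among the lower genes too. Mb, the oxygen store myoglobin, gave 440 and 317 in high RVSP, 1158 and 1027 in normal RVSP and 636 and 662 in the controls, a log2 difference of -1.51 ± 0.20 (2.84-fold lower; 95% interval -1.97 to -1.05). All 3 groups were separate, with the controls between the others. The other Mb probe set did not exceed 20.3 on any array and lay the other way. Ckm, the muscle creatine kinase, gave 292 and 162 against 550 and 437 (-1.11 ± 0.29). Ckmt2, the sarcomeric mitochondrial creatine kinase, gave 695 and 448 against 1366 and 873 (-0.95 ± 0.27).

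Atp2a2, the calcium pump SERCA2 of heart and smooth muscle, gave 2759 and 1832 in high RVSP and 5089 and 3396 in normal RVSP (-0.88 ± 0.25). Its brightest probe set lay the same way, at 5642 and 4094 against 8651 and 6210 (-0.61 ± 0.22), while another bright one lay at 6204 and 6036 against 4952 and 5921 (0.18 ± 0.18). Controls of Atp2a2 at the first of these, 3317 and 3375, were close to the lower normal RVSP array.

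Cyp1a1, the cytochrome P450 that is the classic target of the aryl hydrocarbon receptor, gave 318 and 844 in high RVSP, 1695 and 1548 in normal RVSP and 835 and 819 in the controls (-1.61 ± 0.37). The controls lay with the high RVSP mice. The values of other targets and of the receptor were closer: Cyp1b1 gave 196 and 154 against 205 and 213 (-0.25), Nqo1 overlapped (0.14), and the receptor Ahr overlapped at 3964 and 4205 against 4144 and 4405 (-0.07). Of the 3 Cyp1b1 probe sets the other 2 lay higher in high RVSP, 1 of them without overlap. Over the 13 measured genes of the aryl hydrocarbon and retinoid list, 7 were lower and the median was -0.06.

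Apmap, a membrane protein abundant in fat cells, gave 67.2 and 19.9 in high RVSP against 293 and 267 in normal RVSP (-2.44 ± 0.41). Zdhhc12, a palmitoyltransferase, gave 60 and 72.7 against 310 and 349 (-2.07 ± 0.31). Ddx39b, an RNA helicase of mRNA export, gave 105 and 65.6 against 261 and 285 (-1.54 ± 0.38). These 3 had controls below both normal RVSP arrays, at 107 and 112 for Apmap, 68.2 and 109 for Zdhhc12 and 164 and 78.5 for Ddx39b. C2cd4b, Prrt4 and Tm2d2 were also lower without overlap, by log2 differences of -1.0, -1.99 and -0.72. The other Apmap probe set and the other 3 of Ddx39b overlapped, 1 of these 3 with a difference above 0. Of the other 2 Prrt4 probe sets, 1 overlapped and 1 lay higher in high RVSP without overlap. Of the other 7 of Tm2d2, 2 had differences above 0.

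Heart muscle genes were lower in high RVSP as a list. Muscle cells of cardiac type form a sheath around the large pulmonary veins of the mouse and are read in whole lung. For this and every list below, each gene is represented by its brightest probe set, and over all 18193 genes so represented 54.8% had a difference below 0, 18.4% lay lower in high RVSP without overlap, 13.3% higher, and the median log2 difference was -0.03. Of 24 heart muscle genes 23 were lower, 15 of them without overlap, 13 had an unadjusted limma p under 0.05 in that direction (1.47% of all genes), and the median was -0.68. Fewer such cells and less RNA per cell cannot be told apart in bulk tissue.

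Myh6, the heavy chain of atrial and adult mouse heart myosin, gave 5250 and 2053 in high RVSP, 7744 and 5502 in normal RVSP and 7300 and 5718 in the controls (-0.99, 95% interval -1.89 to -0.08). Smpx, a small muscle protein of the costamere, gave 300 and 160 against 577 and 384 (-1.04, interval -1.77 to -0.32). Tnni3, the cardiac troponin I, gave 904 and 453 against 1337 and 1247 (-0.99, interval -1.70 to -0.29). In each the second high RVSP array was the lowest, and the first lay only just below the normal RVSP arrays for Myh6.

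Cox6a2, the muscle form of a cytochrome oxidase subunit, gave 693 and 491 against 1075 and 807 (-0.66). Myl4, the atrial essential light chain, gave 2356 and 1768 against 2865 and 3073 (-0.54). The atrial regulatory light chain Myl7 overlapped, at 3935 and 1400 against 5869 and 3894 (-1.02). Myl2, the ventricular counterpart of Myl7, did not exceed 82.0 on any array and was the only list member higher in high RVSP (0.19, interval -0.57 to 0.96).

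The second high RVSP mouse had the lowest level of all 6 arrays for 21 of the 24 genes, and the first normal RVSP mouse the highest for 18. The median over the list was -0.31 without the second high RVSP array and -1.0 without the first. It was -0.51 without the first normal RVSP array and -0.53 with the beta-actin 3'/5' ratio as a covariate. The direction was the same in each of these fits, and its size rested on single mice.

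**Figure D3:**
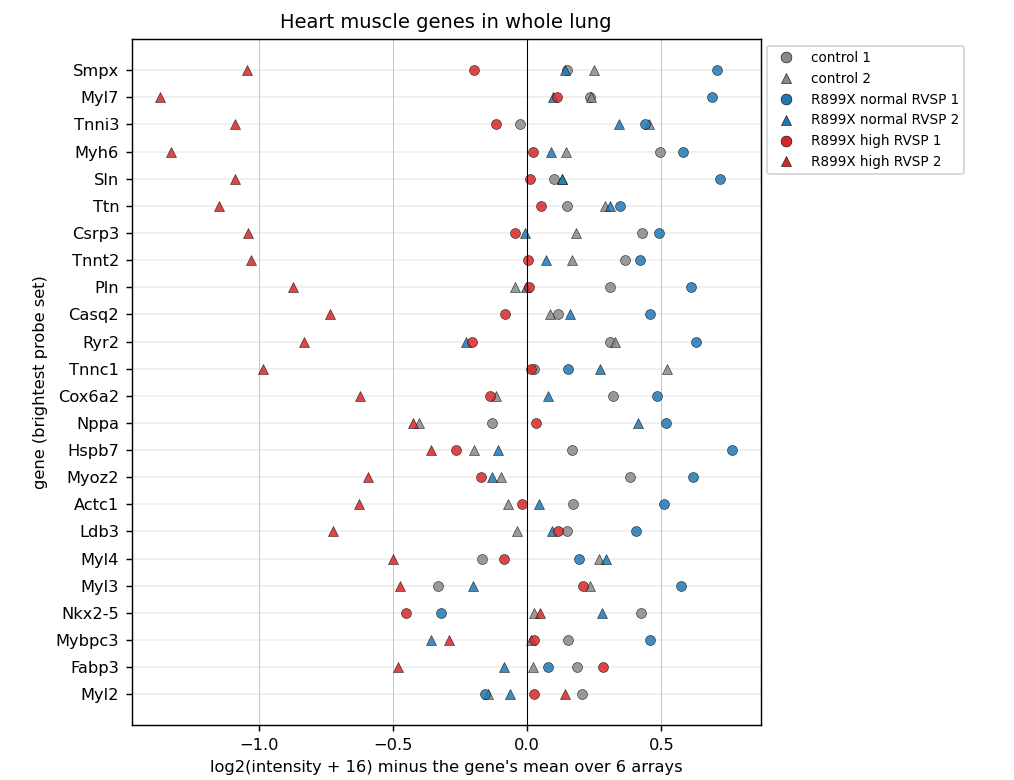
Level of each of the 24 heart muscle genes on each array, as log2(intensity + 16) minus the gene's mean over the 6 arrays (horizontal axis), 1 mark per mouse. The red triangles (second high RVSP mouse) are leftmost for 21 genes, while the red circles (first high RVSP mouse) lie near the grey control marks.

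Skeletal muscle genes as a list did not lie to one side, with 8 of 15 lower and a median of -0.01. Its lower members were led by Mb and Ckm, which the heart also uses, and Myh7, a slow myosin heavy chain shared with heart, gave 783 and 838 against 952 and 1049 (-0.30). The fast myosin heavy chains Myh1, Myh2 and Myh4, defining genes of skeletal muscle, did not exceed 47.0 on any array. Acta1, the skeletal alpha-actin, was higher at 139 and 174 against 110 and 97 (0.52).

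To show the regulatory sequence of heart muscle members, the 250 bases before the RefSeq start of Myl7 and Ttn (assembly GRCm38.p6) are given, the former with a CArG box and the latter with a MEF2 site in capitals. The probe files name no genome build, so these windows describe the genes and not the probe sets. Ttn, which encodes the giant sarcomere spring titin, gave 1530 and 656 in high RVSP against 1880 and 1828 in normal RVSP (-0.87). Myl7 lies at chr11:5898783-5899032 on the minus strand, with the match starting 61 bases before the start, and Ttn at chr2:76982548-76982797 on the minus strand, with the match starting 166 bases before it.
Myl7: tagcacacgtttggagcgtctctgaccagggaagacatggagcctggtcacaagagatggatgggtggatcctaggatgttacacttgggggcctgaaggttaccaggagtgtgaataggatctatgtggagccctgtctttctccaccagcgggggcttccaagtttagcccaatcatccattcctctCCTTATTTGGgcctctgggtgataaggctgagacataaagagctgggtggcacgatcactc
Ttn: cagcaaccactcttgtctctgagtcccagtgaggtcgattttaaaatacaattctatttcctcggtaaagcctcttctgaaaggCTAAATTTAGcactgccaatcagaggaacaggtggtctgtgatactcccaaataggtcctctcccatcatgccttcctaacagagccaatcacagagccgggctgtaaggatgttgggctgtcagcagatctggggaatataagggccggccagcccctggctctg
Of 22 heart muscle genes with a RefSeq window, 4 held a CArG box (18.2%) and 4 a MEF2 site (18.2%), against 1.62% and 3.42% of 27025 genes. Both strands were searched, and a match describes letters and not binding.

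Interferon-stimulated genes were lower in both high RVSP mice. Interferons are cytokines: interferon gamma, made by T cells and natural killer cells, signals through its receptor to GAS elements, type I interferons signal to ISRE elements, and the induced proteins restrict intracellular pathogens and increase antigen presentation. Of 31 measured genes of this list 29 were lower, 22 of them without overlap against 18.4% of all genes, 9 had an unadjusted limma p under 0.05 in that direction, 0 passed adjustment, and the median log2 difference was -0.41. Leaving out any 1 of the 4 R899X arrays gave medians between -0.48 and -0.42, and the value was -0.37 once the beta-actin ratio entered the fit and -0.49 with each array centred on its median.

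Igtp, an interferon-inducible GTPase that acts on pathogen vacuoles, gave 868 and 1063 in high RVSP and 2210 and 3676 in normal RVSP, a log2 difference of -1.55 (95% interval -3.05 to -0.05, 2.94-fold lower). Irgm2, a regulator of those GTPases, gave 1285 and 1381 against 3092 and 4860 (-1.53, interval -2.88 to -0.18). Zbp1, a sensor of viral nucleic acid, gave 107 and 92.8 against 182 and 258 (-1.01, interval -1.91 to -0.12). The high RVSP arrays were close to each other and below both normal RVSP arrays for all 3 genes.

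The controls did not settle which side stood apart. For Igtp they gave 5964 and 1085, for Irgm2 6643 and 1434, and for Zbp1 233 and 102, so that control 1 lay with or above the normal RVSP mice and control 2 with the high RVSP mice. The 7 interferon-inducible GTPases of the list (Igtp, Irgm1, Irgm2, Iigp1, Gbp2, Gbp3 and Gbp6), a subset set apart after the values were seen, were all lower without overlap, with differences from -1.55 to -0.76 and a median of -1.28. Control 1 was the highest of the 6 arrays for 7 of 7 and control 2 was below both normal RVSP arrays for 7 of 7. The other 24 genes had a median of -0.34, and control 2 was below both normal RVSP arrays for 16 of them.

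Oasl2, an antiviral protein related to the oligoadenylate synthetases, gave 516 and 575 in high RVSP against 976 and 831 in normal RVSP (-0.71, interval -1.35 to -0.07). Other antiviral genes varied: Oas2 (-0.69), Rtp4 (-0.56) and Oas1a (-0.50) were lower without overlap, as was Ifit3 at 973 and 1296 against 1428 and 1577 (-0.41), while Ifit1 (-0.33), Ifit2 (-0.12) and Mx1 (-0.36) overlapped. Rsad2, which encodes viperin, was 337 and 1764 with high RVSP and was the member with the widest spread between them. The transcription factors Irf1 and Irf7 had differences of -0.50 and -0.52.

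Ifng, the ligand interferon gamma, gave 21 and 19.7 in high RVSP, 43.0 and 51.6 in normal RVSP and 58.0 and 22.7 in the controls (-0.80, interval -1.74 to 0.15). These intensities are dim, below the 78.3 that bounds the lower 40% of probe sets, and the part of Ifng in the values of the other genes was not tested. Its receptor chains overlapped: Ifngr1 gave 2126 and 2243 against 1779 and 2148 (0.16), and Ifngr2 gave 368 and 459 against 366 and 409 (0.08). The type I receptor chains lay higher in high RVSP without overlap, Ifnar1 at 952 and 896 against 688 and 858 (0.26, interval -0.21 to 0.73) and Ifnar2 at 1710 and 1701 against 1690 and 1550 (0.07, interval -0.27 to 0.42). Gzmb, the granzyme B of cytotoxic cells, gave 486 and 538 against 835 and 781 (-0.64), with controls at 1002 and 439.

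Antigen processing for MHC class I, which the same cytokine induces, lay the same way. Of 13 measured genes 12 were lower, 9 without overlap, and the median was -0.25. Psmb9, a catalytic subunit of the immunoproteasome, gave 1280 and 1569 in high RVSP, 2413 and 2872 in normal RVSP and 2172 and 1766 in the controls (-0.89 ± 0.18, interval -1.30 to -0.47). Psmb8, another such subunit, gave 1689 and 1750 against 2526 and 3058 (-0.69). H2-M3, a nonclassical class I molecule, gave 1154 and 1296 against 1793 and 2158 (-0.68).

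Nlrc5, the transactivator of class I genes, gave 410 and 362 in high RVSP against 764 and 927 in normal RVSP (-1.10, interval -2.23 to 0.04). Tap1, a subunit of the peptide transporter, gave 374 and 552 against 645 and 1088 (-0.86, interval -1.79 to 0.07). Of the 4 Tap1 probe sets 2 had differences above 0, and only the one printed lay apart without overlap. The class I heavy chain H2-K1 gave 17711 and 18033 against 22265 and 20466 (-0.26), a smaller difference at far brighter probe sets. For all 9 genes without overlap the controls lay on either side of the midpoint between the high and normal RVSP means.

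MHC class II genes included 7 of 9 lower, 4 without overlap, with a median of -0.12. H2-DMa, which helps load peptides, gave 1182 and 1204 against 1676 and 2224 (-0.69), and H2-Eb1 gave 361 and 292 against 430 and 618 (-0.64). H2-Ab1 gave 4139 and 4195 against 4517 and 6966 (-0.43). Ciita, the class II transactivator, gave 168 and 153 against 221 and 304 (-0.64), while H2-Aa overlapped at -0.11 and H2-Ob overlapped at 0.24. The median of this list was -0.02 without the second normal RVSP array and -0.37 without the first.

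**Figure D4:**
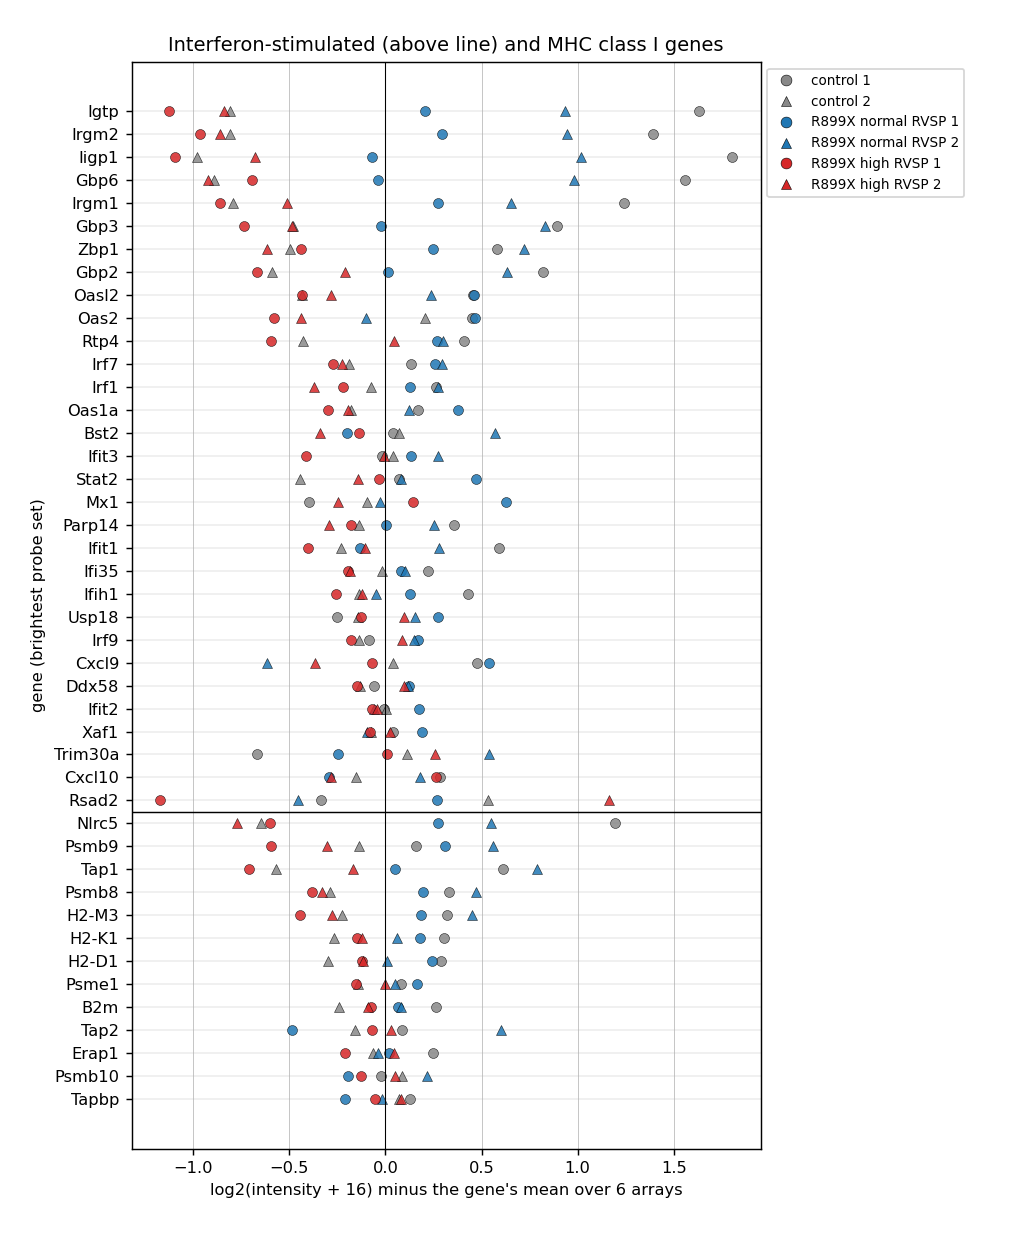
Level of the 31 interferon-stimulated genes (above the line) and 13 MHC class I pathway genes (below it) on each array, as log2(intensity + 16) minus the gene's mean over the 6 arrays (horizontal axis), 1 mark per mouse. Both red marks (high RVSP) lie left of both blue marks (normal RVSP) for 22 of the 31 upper genes, and control 1 (grey circle) is rightmost for 13 of them, including the 7 GTPases.

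The 250 bases before the start of 4 of these genes are printed to show where the letters of ISRE and GAS elements occur. As above, a match describes letters and not binding. Capitals mark ISRE matches (GAAANNGAAA, both strands) and GAS matches (TTCNNNGAA, the same on both strands), and the windows are from RefSeq, GRCm38.p6. Igtp (chr11:58199306-58199555, plus strand) and Irgm2 (chr11:58214727-58214976, plus strand) are neighbours and share a GAS match followed after 2 bases by an ISRE match. Psmb8 (chr17:34197945-34198194, plus strand) holds a GAS match, and Psmb9 (chr17:34187331-34187580, minus strand) holds neither and shares 225 of its 250 bases with the window of Tap1, which is read from the opposite strand.
Igtp: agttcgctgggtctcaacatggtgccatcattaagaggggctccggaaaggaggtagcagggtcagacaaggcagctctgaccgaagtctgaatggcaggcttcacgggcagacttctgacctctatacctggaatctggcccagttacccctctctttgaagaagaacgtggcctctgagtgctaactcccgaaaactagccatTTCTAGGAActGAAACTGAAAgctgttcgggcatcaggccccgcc
Irgm2: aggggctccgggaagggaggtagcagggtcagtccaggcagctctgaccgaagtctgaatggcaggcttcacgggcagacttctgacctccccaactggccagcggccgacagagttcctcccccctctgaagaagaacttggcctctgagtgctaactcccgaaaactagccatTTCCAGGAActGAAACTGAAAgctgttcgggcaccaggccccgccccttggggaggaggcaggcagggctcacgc
Psmb8: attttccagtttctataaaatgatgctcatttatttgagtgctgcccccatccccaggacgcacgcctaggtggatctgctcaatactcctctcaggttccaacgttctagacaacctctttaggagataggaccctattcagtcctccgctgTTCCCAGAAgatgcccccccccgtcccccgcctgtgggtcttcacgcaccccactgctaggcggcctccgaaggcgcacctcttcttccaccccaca
Psmb9: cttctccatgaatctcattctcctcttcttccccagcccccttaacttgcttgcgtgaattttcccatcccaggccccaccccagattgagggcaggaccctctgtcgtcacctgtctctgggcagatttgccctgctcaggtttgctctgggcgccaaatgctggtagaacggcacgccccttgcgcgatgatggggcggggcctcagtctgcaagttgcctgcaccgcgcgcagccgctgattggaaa
The interferon-stimulated list named 34 genes, measured or not, and 25 of them had a window. Of these 25 genes 14 held an ISRE match (56%) and 6 a GAS match (24%), against 3.46% and 8.13% of 27025 genes. Isg15, among the 14, was not measured here. The ISRE starts 34 bases before the start in Igtp and 64 in Irgm2. No match says only that these letters are not in the window.

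Markers of the cells that could carry these transcripts were compared. Macrophage genes were lower for 9 of 13, 1 without overlap, with a median of -0.11 that was 0.07 without the first high RVSP array and 0.04 with the beta-actin covariate. Natural killer cell genes were lower for 6 of 7, 3 without overlap, with a median of -0.21 that was 0.04 without the second high RVSP array and 0.00 with the beta-actin covariate. T cell genes were higher for 10 of 10, 5 without overlap, with a median of 0.25 (0.11 without the first normal RVSP array), where 45.2% of all genes had a difference above 0. Among T cell genes Cd4, the coreceptor of helper cells, gave 85.8 and 83.4 in high RVSP against 23.3 and 56.2 in normal RVSP (0.92). This Cd4 probe set was dim, with a mean in the lower 40%. Of the 2 Cd4 probe sets the other was lower in high RVSP, with overlap. Cd28, a costimulatory receptor, gave 481 and 515 against 304 and 434 (0.44), and Cd3e, a chain of the T cell receptor complex, overlapped (0.19). The part of these cells in the interferon values was not tested.

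The promoter that drives rtTA is active mainly in smooth muscle, and where the transgene was expressed in these lungs was not established. Contractile genes of smooth muscle were slightly lower in high RVSP. Of 19 genes 16 were lower, 10 without overlap, with a median of -0.18 and 0 at an unadjusted limma p under 0.05. Acta2, the smooth muscle alpha-actin, gave 8524 and 8343 in high RVSP against 9730 and 8824 in normal RVSP (-0.14, interval -0.49 to 0.22). Of the 3 Acta2 probe sets the other 2 had differences above 0 and overlapped. Smtn, or smoothelin, gave 477 and 389 against 608 and 530 (-0.38, interval -0.87 to 0.11), and Synpo2, an actin-binding protein, gave 472 and 377 against 633 and 480 (-0.37). Lmod1, an actin nucleator of smooth muscle, gave 112 and 51.7 against 143 and 115 (-0.64).

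Control 1 was below both normal RVSP mice for 14 of the 19 genes and control 2 for 11, and Tpm2, a tropomyosin, gave 2824 and 2951 in high RVSP, 3505 and 3205 in normal RVSP and 2761 and 2668 in the controls (-0.21). At this Tpm2 probe set the normal RVSP mice were the high ones, and the other groups lay together. Of the 4 Tpm2 probe sets 2 had differences above 0. The median of the list was -0.10 without the first normal RVSP array. Pericyte genes (median -0.07), fibroblast genes (-0.08) and extracellular matrix genes (-0.06, 15 of 25 lower) lay near the median of all genes.

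Endothelial genes were near that median too, with 15 of 23 lower, 4 without overlap, and a median of -0.06 that was 0.01 without the first normal RVSP array. Vwf, the clotting factor stored in endothelium, overlapped at 5170 and 4278 against 8145 and 4805 (-0.41). Ramp2, the coreceptor for adrenomedullin, gave 9869 and 9695 against 12147 and 11367 (-0.26). Pecam1, the junctional protein CD31, gave 6112 and 5590 against 5169 and 5466 (0.14, interval -0.28 to 0.56).

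In the BMP pathway the receptors and Smads lay near the median of all genes. Of 14 genes 10 were lower and 1 lay apart without overlap, with a median of -0.04. Eng, the coreceptor endoglin, overlapped at 5306 and 5561 against 7118 and 5489 (-0.20, interval -0.62 to 0.22). Acvr2a, a type II receptor related to BMPR2, gave 2170 and 2045 against 1918 and 2026 (0.10, interval -0.23 to 0.42), and Bmpr1a, a type I partner, overlapped (-0.10, interval -0.46 to 0.27). Smad1, a signal carrier, overlapped at 1780 and 1827 against 1342 and 1792 (0.22).

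BMP targets had a median of -0.00 over 15 genes, with 7 higher and 8 lower, and its sign changed under 11 of 16 alternative settings, both other scalings included. Id1, the classic BMP target, gave 2355 and 1855 in high RVSP, 1915 and 1650 in normal RVSP and 1170 and 2243 in the controls (0.23, interval -0.43 to 0.89). Msx2, a homeobox target, gave 2.45 and 18.2 against 65.8 and 41.8 (-1.45, interval -2.44 to -0.46), all dim values. Grem1, a secreted BMP antagonist, was dim too, at 56.0 and 84.0 against 14.6 and 41.0 (1.02). Among the related TGF-beta genes Ccn2, the matricellular connective tissue growth factor, gave 6354 and 7107 against 10641 and 8726 (-0.52, interval -0.91 to -0.13), below the controls at 7735 and 8431.

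Thbs1, a matrix protein that activates TGF-beta, lay the other way at 1137 and 997 against 478 and 802 (0.77), and Tgfb1, the ligand, gave 1117 and 1058 against 772 and 979 (0.32). The list of 11 had a median of 0.01, below 0 under median centring. Ccn2 and Thbs1 thus lay on opposite sides, both without overlap.

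Genes of vascular tone, through which vessels narrow or widen, had 10 higher and 10 lower of 20, 6 without overlap, and a median of 0.02 that turned below 0 under quantile normalization and under median centring. Edn1, the vasoconstrictor endothelin, overlapped at 2808 and 2187 against 2277 and 2260 (0.13, interval -0.29 to 0.55). Npr3, the clearance receptor for natriuretic peptides, gave 4388 and 3641 against 1326 and 3611 (0.86, interval -0.10 to 1.83). The controls, at 3900 and 6083, lay with or above the high RVSP arrays. The second normal RVSP array lay just below the high RVSP arrays, so the first normal RVSP array was the low one. Ptgis, the prostacyclin synthase, gave 4275 and 4772 against 5733 and 5076 (-0.26, interval -0.60 to 0.09), and Adm, the vasodilator adrenomedullin, gave 154 and 176 against 215 and 201 (-0.31).

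Nppa, the atrial natriuretic peptide, gave 52.3 and 33.8 against 79.7 and 72.9 (-0.66), and Ace, the angiotensin converting enzyme, overlapped (-0.33). Of the serotonin genes Tph1, the rate-limiting synthetic enzyme, was dim at 41.9 and 11.4 against 6.60 and 2.07 (0.98), and Slc6a4, the transporter, gave 215 and 225 against 202 and 177 (0.20).

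Platelet and megakaryocyte genes were higher in high RVSP for 10 of 10, 6 without overlap, with a median of 0.30. Pf4, a platelet chemokine, gave 1261 and 1672 against 1256 and 1127 (0.28), and Gp1bb, a subunit of the von Willebrand factor receptor, gave 253 and 366 against 193 and 241 (0.47). The first high RVSP mouse lay just above the normal RVSP mice, the second well above them, and without the second the median was 0.12. The summed level of this list per array, as the median deviation from each gene's mean, was 0.07 and 0.41 in high RVSP, -0.00 and -0.00 in normal RVSP and -0.26 and -0.16 in the controls. Red cell genes, another sign of blood left in the tissue, were at -0.67 and 0.84 in high RVSP and 0.25 and -0.55 in normal RVSP, and the part of retained blood was not tested.

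B and plasma cell genes had a median of 0.24 and were higher for 9 of 11, but it was -0.03 without the first high RVSP array. Mesothelial genes had a median of 0.25, which was -0.10 without the second high RVSP array and -0.02 without the second normal RVSP array. In that list Lrrn4 gave 548 and 659 against 469 and 402 (0.46), and Upk3b, a uroplakin of the lung surface lining, gave 1219 and 1632 against 1115 and 817 (0.55). Alveolar type 1 and type 2 genes, of the gas exchange epithelium, both had a median of 0.00, whose sign depends on the scaling, with members from -0.16 to 0.38 and from -0.21 to 0.17.

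**Figure D5:**
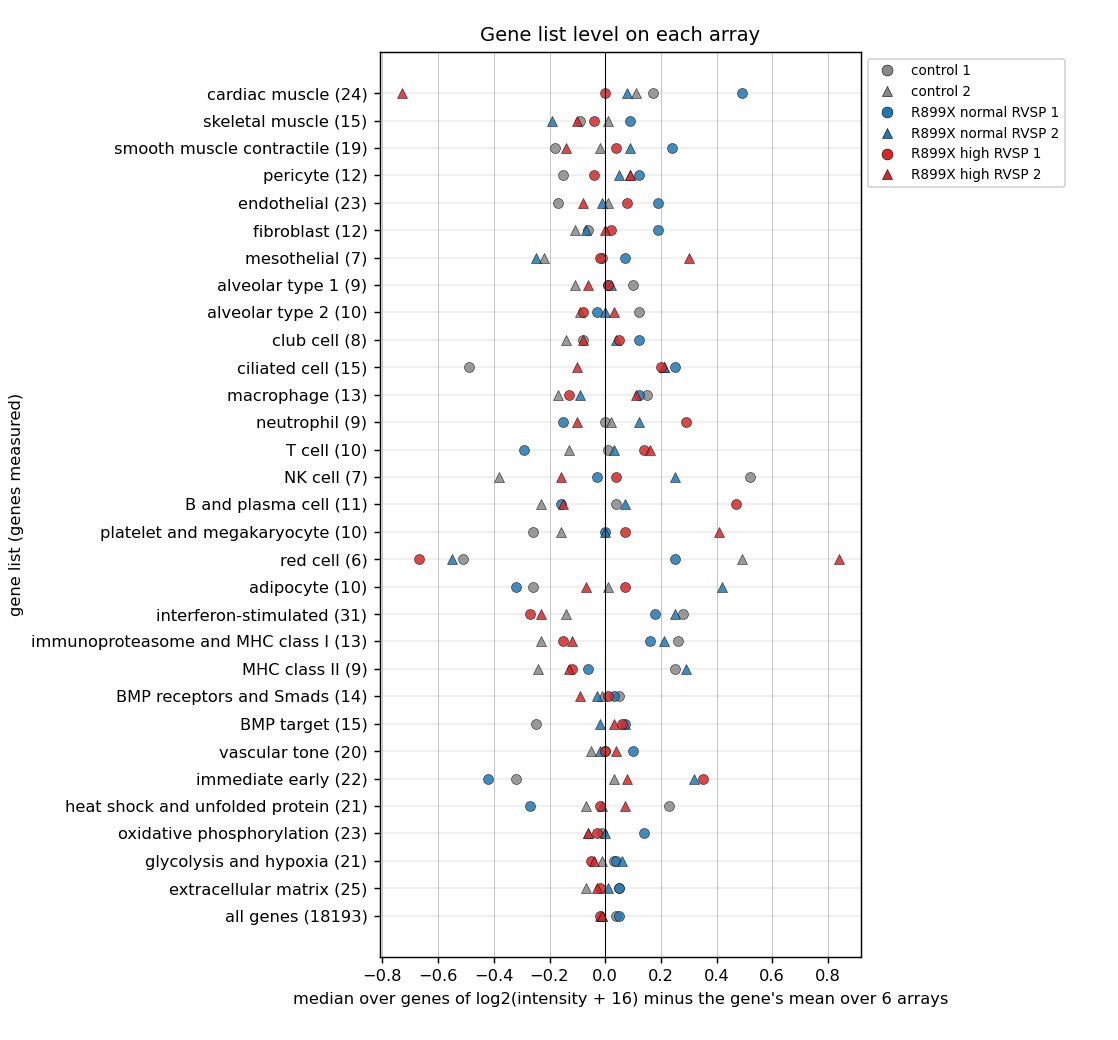
Level of 30 gene lists and of all genes on each array, as the median over the list's genes of log2(intensity + 16) minus the gene's mean over the 6 arrays (horizontal axis), 1 mark per mouse. Both high RVSP marks (red) lie left of both normal RVSP marks (blue) for interferon-stimulated genes. The same holds for several other lists, among them heart muscle, smooth muscle, MHC class I, MHC class II and oxidative phosphorylation genes. A single mouse stands apart for heart muscle, ciliated cell and platelet genes.

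Stress and immediate early genes were higher in high RVSP, with the difference resting on 1 normal RVSP mouse. Of 22 immediate early genes 19 were higher, with a median of 0.30 that was -0.05 without the first normal RVSP array. Btg2, an antiproliferative early gene, gave 6685 and 5371 in high RVSP against 1963 and 5526 in normal RVSP (0.86). Myc, the growth regulator, was separated at 231 and 254 against 138 and 182 (0.57), as was Egr2, a zinc finger factor, at 403 and 480 against 231 and 371 (0.56). The first normal RVSP mouse was also the R899X animal with the highest beta-actin ratio, 1.64, and with that ratio as a covariate the median was 0.11. Control 1 had a higher ratio, 1.89, and the part of RNA integrity in these values was not tested.

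Heat shock and unfolded protein genes were higher for 18 of 21, 8 without overlap, with a median of 0.13 that was -0.03 without the same array. Ddit3, the stress transcription factor CHOP, gave 1299 and 1247 in high RVSP, 891 and 970 in normal RVSP and 1170 and 1208 in the controls (0.45, interval 0.11 to 0.79), so the normal RVSP mice were the low ones. Dnajb1, a cochaperone, gave 5693 and 5264 against 4397 and 4584 (0.29).

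Oxidative phosphorylation genes were lower for 21 of 23, 11 without overlap, by small amounts: the median was -0.18, and -0.03 without the first normal RVSP array. Ndufb9, a subunit of complex I, gave 4175 and 3890 against 5040 and 4882 (-0.30), and Ndufa9, another, gave 2407 and 2634 against 2940 and 2939 (-0.22). Glycolysis and hypoxia genes were lower for 15 of 21 with a median of -0.11, among them Pkm, the pyruvate kinase, at 2434 and 2439 against 3228 and 2642 (-0.26), and Hif1a, the oxygen-regulated transcription factor, was at 4103 and 4589 against 3951 and 3902 (0.14).

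Where high and normal RVSP did not overlap, the controls took no single side. Among the 14591 such probe sets, both controls lay on the high RVSP side of the midpoint between the group means for 25.6%, on the normal RVSP side for 29.1% and on either side of it for 45.3%. Among the 46 probe sets with a gene name, a mean above the lower 40% and an unadjusted limma p under 0.01, 13 had controls on the high RVSP side, 19 on the normal RVSP side and 14 split. Of the non-overlapping genes (1 probe set each) 42% were higher in high RVSP on the deposited scale, 35.7% after quantile normalization and 22.3% with each array centred on its median, which moves the median difference of all genes from -0.03 to -0.11.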

How the data were processed

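The authors deposited a table of intensities on a linear scale, with 45101 probe sets in rows and the 6 arrays in columns. Their mean after trimming 2% at each end is 500.0 on every array, and how probe brightness was summarised is not given in the sources used. Per the labels' protocols, the mice received heparin shortly before death, and RNA came from the saline-flushed right lung. The 64 AFFX control probe sets were left out, and log2(intensity + 16) was computed, which understates differences of dim probe sets. With R 4.3.3 and limma 3.58.1, group means were fitted to all 6 arrays (3 residual and 5.08 prior degrees of freedom, intensity trend), and high minus normal RVSP was tested two-sided with Benjamini-Hochberg adjustment over 45037 probe sets. Values after ± are standard errors and intervals are 95% intervals, both from limma.

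The platform annotation, which can be old, paired 34945 probe sets with a single gene symbol and 932 with more than 1, while 9160 are unnamed here. Through gene identifiers 34741 of the single-symbol probe sets matched RefSeq genes of GRCm38.p6, and 0 symbols changed. The comparison and the 47 gene lists (23 of cell types, 24 of pathways) were chosen with earlier results of these data known, so no list is independent evidence and none was tested as a set. Besides the 24 genes of the rule on separated genes, each list is named by its first member or by members of smallest p, and other members, the receptors and the sequences were chosen after values were seen. Alternatives were other pseudocounts, filters, scalings, moderation, a beta-actin covariate and leaving out arrays. The procedure was tested on simulated data, where 4.71% of calls were false. The files carry no depth, and the number of arrays limits the precision.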

Additional observations from a re-analysis of the deposited data

How the results depend on the processing

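Of 45037 probe sets 0 passed in limma under pseudocounts of 1 and 64, either filter on dim probe sets, quantile normalization, median centring, a fit on the 4 R899X arrays alone, no intensity trend, a robust prior and a beta-actin covariate, and 0 passed in an ordinary linear model. Leaving out 1 array gave between 0 and 3, the 3 only without the second normal RVSP array, where the lone remaining mouse is assumed to vary like the other groups; the cause was not tested. No paired analysis was possible because the labels give no number that pairs mice across groups, and replicate numbers follow accession order. The medians of 13 of 47 gene lists kept their sign under all 16 settings tried, among them heart muscle, interferon-stimulated, MHC class I, MHC class II, smooth muscle, platelet and T cell genes. Those of 34 lists changed sign under at least 1 setting, 4 under quantile normalization and 8 under median centring. The share of non-overlapping probe sets with both controls on the normal RVSP side lay between 27.6% and 31.2%. Dim probe sets such as those of Ifng, Msx2, Grem1 and Tph1 lie below the intensity of 78.3 that bounds the lower 40%, where the level over background limits what can be read.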

Other observations

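Some clock genes lay apart between the groups. Arntl, the clock activator BMAL1, gave 345 and 318 in high RVSP, 183 and 230 in normal RVSP and 279 and 223 in the controls (log2 difference 0.65, 95% interval 0.11 to 1.19). Cry1, a repressor of the same clock, gave 737 and 949 in high RVSP against 1122 and 1089 in normal RVSP (-0.40), with controls at 1205 and 1103. Over the 18 clock genes 8 were higher and 10 lower, and the median of -0.09 changed sign under 6 settings. The labels give no time of day at death.

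Cytokine genes had 10 of 19 higher and a median of 0.03, below 0 under median centring, and most were dim. Csf3, the granulocyte growth factor, gave 32.1 and 22.9 in high RVSP against 10.8 and 5.27 in normal RVSP (0.86). Il6, an acute inflammatory cytokine, spread most within a group, with 17.5 and 648 in the normal RVSP mice and 474 and 269 in the high RVSP mice. Tslp, an epithelial cytokine, was lower at 172 and 214 against 399 and 228 (-0.62).

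Ppara, the nuclear receptor that regulates fatty acid oxidation, gave 140 and 172 in high RVSP, 282 and 245 in normal RVSP and 285 and 225 in the controls (-0.70, interval -1.28 to -0.13), so the high RVSP mice were the low ones at this probe set. Of the 3 Ppara probe sets 2 had differences above 0. The groups did not overlap at 2 of the 3, this one lower and another higher in high RVSP. The fatty acid oxidation list was lower for 10 of 14 genes with a median of -0.09. Sfrp5, a secreted Wnt antagonist, gave 48.9 and 38.7 in high RVSP against 91.8 and 102 in normal RVSP (-0.92), with controls at 132 and 104. Of 27 Wnt and Notch genes 17 were lower, 7 without overlap, with a median of -0.10.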
